A study of Homo sapiens with 4 samples.

Results

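The ubiquitin-specific proteases (USPs) are the largest family of deubiquitinases in human cells. They are cysteine proteases that cut ubiquitin off other proteins, so they reverse the work of the ubiquitin ligases and decide whether a tagged protein is degraded, moved or signalled through. *USP22* belongs to this family and acts inside SAGA, a chromatin complex. Its nearest relatives *USP27X* and *USP51* use the same adaptor proteins. This report follows the remaining family members and asks whether any of them was higher when *USP22* was targeted. Members were all genes with a symbol of USP and a number, with X or L allowed at the end. *USP22*, *USP27X*, *USP51*, *USP18* and the *USP17L* repeat genes were left out by name. This gave 46 of the 28278 genes in the count table.

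The cells were labelled HepG2, a human liver cancer line, and were infected with lentivirus carrying Cas9 with either a control sgRNA (control group) or an sgRNA against *USP22* (sgUSP22 group). They were used as selected populations rather than described as clones. Every library came from cells given Sorafenib, a multikinase inhibitor, at 10 µM for 24 h, so no comparison with untreated cells was possible. Each group had 2 libraries, and nothing says that these came from separate cultures, so the p-values measure only the spread between these libraries.

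The libraries held between 62030307 and 64728272 counts. Counts of *USP22* itself were 16450 and 16537 in control and 20279 and 20368 in sgUSP22 libraries. Its transcript was thus higher, not lower, where it was targeted (log2 fold change 0.22, adjusted p = 0.000394 in the edgeR test described below). The paper reports that knockout was checked by Western blot, which measures protein. Directions below follow the labels. Of 24 hepatocyte markers, 12 were listed at 0 in all 4 libraries, *ALB*, *APOA1*, *APOB*, *TTR* and *FOXA2* among them, while *CPS1* averaged 996 CPM in control libraries. CPM is a gene's count scaled to the size of its library, with TMM factors. A second list of 16 genes was meant for other cell types, but its keratins *KRT8* and *KRT18* are also made by liver cells. In control libraries *KRT7* averaged 2276 CPM and *VIM* 1072 CPM, and *KRT19*, *CD3E*, *STMN2* and *GAP43* were listed at 0. The summed hepatocyte markers ran from 998 to 1039 CPM in control and from 1319 to 1349 CPM in sgUSP22 libraries. Nearly all of this sum was *CPS1*, at 996 CPM in control and 1314 CPM in sgUSP22 libraries, so it does not describe the list. *FOXA1* fell from 16.2 to 11.8 CPM, and *CEBPA* stood at 5.87 and 7.36 CPM. The summed second list ran from 5649 to 5865 and from 4035 to 4156 CPM. Its genes did not move together. In sgUSP22 libraries *KRT7* averaged 1255 CPM and *VIM* 818 CPM, while *COL3A1* went up from 503 to 573 CPM. The part of these marker differences in the results below was not tested. In these bulk libraries a changed number of expressing cells cannot be told apart from a changed amount of RNA per cell.

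To show the DNA in front of members that moved, the 250 bases upstream of the RefSeq start were taken for the pair with the largest rises and for the member that fell most. Capitals mark the GC box GGGCGG, the CCAAT box, the TATA box written as TATAAA, the E-box written as CACGTG and the ETS core written as CCGGAA, all searched on both strands. The windows, written on the gene's own strand, are chr4:119212463-119212712 on the plus strand for *USP53*, chr11:119364209-119364458 on the minus strand for *USP2* and chr10:73625642-73625891 on the minus strand for *USP54* (GRCh38.p14).
USP53: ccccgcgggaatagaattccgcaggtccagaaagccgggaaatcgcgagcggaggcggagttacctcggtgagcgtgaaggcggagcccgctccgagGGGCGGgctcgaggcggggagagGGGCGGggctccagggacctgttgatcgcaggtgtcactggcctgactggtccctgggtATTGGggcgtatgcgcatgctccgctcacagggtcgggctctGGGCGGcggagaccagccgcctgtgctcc
USP2: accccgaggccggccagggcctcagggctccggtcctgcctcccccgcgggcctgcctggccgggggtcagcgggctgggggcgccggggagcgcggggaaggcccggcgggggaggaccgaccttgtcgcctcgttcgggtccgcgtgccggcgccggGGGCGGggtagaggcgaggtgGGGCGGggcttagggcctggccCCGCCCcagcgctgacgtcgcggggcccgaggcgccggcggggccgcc
USP54: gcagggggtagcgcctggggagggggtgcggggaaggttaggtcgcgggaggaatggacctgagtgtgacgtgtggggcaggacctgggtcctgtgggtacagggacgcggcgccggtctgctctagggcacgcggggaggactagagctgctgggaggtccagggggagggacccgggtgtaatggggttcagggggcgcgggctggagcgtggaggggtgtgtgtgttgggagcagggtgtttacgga
The *USP53* and *USP2* windows each hold 3 GC boxes, *USP53* also holds 1 CCAAT box read on the other strand, and the *USP54* window holds none of the 5 motifs. These 3 windows do not stand for rising and falling members. Among the other members found lower below, *USP25* had 8 GC boxes, *USP39* 3, *USP20* 1, and *USP11* and *USP36* 0. The *USP2* window belongs to a start 17503 bases inside the annotated gene, and those of *USP54* and *USP53* to starts 476 and 126 bases inside. Windows were found for 37 of the 46 members. Of these, 28 held a GC box (75.7%), against 42.6% of all 35097 windows of that length, and 9 held a CCAAT box (24.3%, against 32%). The ETS core was present in 9 (24.3%, against 14.5%), TATAAA in 2 (5.41%, against 10.7%) and the E-box in 1 (2.7%, against 6.34%). The median GC content of member windows was 70.4%, against 58.0% of all windows. Each member has 1 window, the one nearest its annotated start, while the set of all windows keeps every distinct start of a gene. Shares of members and of all windows are therefore not on like terms. These matches describe letters only.

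To learn which family members differed, the quasi-likelihood test of edgeR was run across all genes that passed the filter on low counts, with Benjamini-Hochberg adjustment. Of the 46 members, 42 passed. At an adjusted p below 0.05, 26 of the 42 were higher in sgUSP22 libraries (61.9%), where 26.8% of all 15150 tested genes were. A further 6 were lower (14.3%), where 25.8% of all genes were. The remaining 10 did not pass the test. Most differences were small. With a fold change of at least 1.5 also required, 4 members were called higher, *USP53*, *USP2*, *USP9X* and *USP42*, or 9.52% against 8.88% of all genes, a share near the background. Of the lower members 0 reached 1.5-fold, against 7.25% of all genes, and this count was also 0 at an unadjusted p under 0.05 and with DESeq2. The median log2 fold change over the 42 was 0.19, against 0.00091 over all tested genes. Both sgUSP22 libraries lay above both control libraries for 26 members and below both for 9, against 38.3% and 37.6% of all genes.

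The count of higher members was smaller in a fit that removed trends with both GC content and transcript length from each library and used limma in place of edgeR, so these changes cannot be told apart. In that fit, called the correction below, 11 members were higher at the adjusted threshold (26.2%, against 24.5% of all 14384 genes so corrected). A further 6 of the 42 were lower, where 25.8% of corrected genes were. With the fold threshold 2 were called higher, *USP2* and *USP42* (4.76%, against 8.2%). The median of the 42 became 0.044. Without sgUSP22 replicate 2, the uncorrected count was 17 higher.

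**Figure D1:**
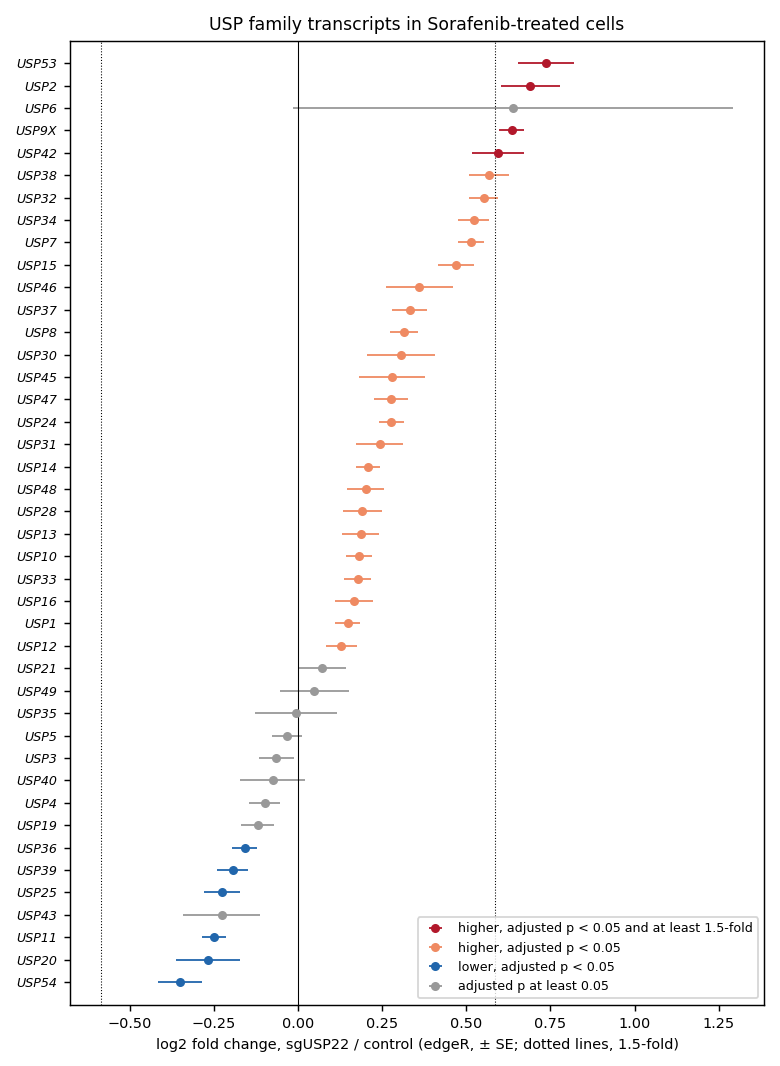
Log2 fold change (sgUSP22 over control, x axis) with its standard error for the 42 tested USP genes (y axis, ordered by value), coloured by the result of edgeR's quasi-likelihood test, with dotted lines at 1.5-fold. The 4 genes in dark red lie above 0.58 on the log2 scale, 22 more lie above 0 past the test, and 6 blue genes lie between -0.35 and -0.16.

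Among members that act on signalling proteins, 6 of 8 rose (75%, against 26.8% of all tested genes), with a median log2 fold change of 0.50. After correction 4 of the 8 were higher, against 24.5% of all corrected genes, and the median was 0.17. *USP2* is a protease tied to MDM2, cyclin D1 and the circadian clock, and its gene is at chr11:119355215-119381711 on the minus strand (hg38). It had 759 and 846 counts in control and 1393 and 1341 counts in sgUSP22 libraries, or 13 ± 0.787 and 21.0 ± 0.301 CPM (SD, n = 2). Both sgUSP22 libraries were well above both controls, at a log2 difference of 0.69 (standard error, SE, 0.089, adjusted p = 0.000123). The correction for GC content and length raised this value to 0.79. *USP9X*, a very large enzyme that protects proteins such as MCL1 and SMAD4 from degradation, was by counts the most abundant member, with 17667 and 18222 against 28893 and 29935. That is 291 ± 1.66 against 452 ± 17.0 CPM (SD, n = 2), and its log2 fold change of 0.63 (SE 0.037, adjusted p = 7.84e-07) was the most precise of those called. Its gene is at chrX:41085445-41236579 on the plus strand. Its corrected value was 0.35, still past the test but under 1.5-fold.

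Of the other signalling members, *USP34*, which acts on axin in Wnt signalling, rose from 8446 and 8884 to 12660 and 13596 counts (log2 fold change 0.52, SE 0.047). *USP38*, known to restrain interferon signalling, rose from 1895 and 1865 to 3034 and 2851 counts (log2 fold change 0.57, SE 0.059). In each the sgUSP22 libraries stood clear of the controls, and both rises remained past the test after correction, at 0.26 and 0.33. *USP15*, which acts on the TGF-beta receptor and SMADs, had 4707 and 4522 against 6536 and 6956 counts and a log2 fold change of 0.47 (SE 0.052, adjusted p = 4.79e-05), but its corrected value was 0.064 (adjusted p = 0.305 from limma). Its transcript is long and poor in GC, 14971 bases at 36.3%. *USP31* went from 2090 and 1924 to 2465 and 2552 counts, a log2 fold change of 0.24, and 0.060 when corrected. It no longer passed the test without control replicate 2 (0.17, adjusted p = 0.0836) or without sgUSP22 replicate 2 (0.20, adjusted p = 0.0942). *USP4*, the close relative of *USP15*, had 4614 and 4490 against 4530 and 4447 counts (log2 fold change -0.099, adjusted p = 0.0963). The libraries overlapped for *USP35*, with 885 and 850 against 807 and 1015 counts.

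*USP42* was the member of the histone and chromatin group with the largest rise. It is known to act on p53 and on ubiquitylated H2B, and its gene is at chr7:6104949-6161564 on the plus strand. It had 1218 and 1312 counts in control and 1945 and 2082 in sgUSP22 libraries, or 20.5 ± 0.746 and 30.9 ± 1.88 CPM (SD, n = 2). Both sgUSP22 libraries were above both controls, and the log2 fold change was 0.59 (SE 0.077, adjusted p = 0.000138) and 0.59 after correction. It lay just above the 1.5-fold threshold, and fell to 0.56 without control replicate 1 and 0.53 without sgUSP22 replicate 2, under that threshold. *USP7*, which stabilises MDM2 and p53, had 6537 and 6450 against 9795 and 9785 counts, or 105 ± 2.70 and 150 ± 1.78 CPM (SD, n = 2). Replicates of *USP7* were close together, and the log2 fold change of 0.51 (SE 0.039, adjusted p = 4.0e-06) was a rise of 1.43-fold, or 0.45 on the log2 scale after correction.

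Other enzymes known to remove ubiquitin from histones H2A and H2B, which USP22 also acts on, differed little between groups or were scarce. *USP16*, an H2A deubiquitinase, had 2618 and 2673 against 3038 and 3225 counts (log2 fold change 0.17, SE 0.057, adjusted p = 0.0332), and -0.029 after correction. Without sgUSP22 replicate 2 the value of *USP16* was 0.11 (adjusted p = 0.283), and it also missed the threshold without control replicate 1 (adjusted p = 0.0662) or 2 (adjusted p = 0.0775) and with DESeq2 (adjusted p = 0.0845). *USP3*, which acts on H2A and H2B, had 4230 and 4248 against 4497 and 4062 counts, overlapping groups, and a log2 fold change of -0.065 (adjusted p = 0.324) that was -0.19 after correction (adjusted p = 0.0159 from limma). *USP21* had 1888 and 1947 against 2042 and 2214 counts, with CPM that overlapped (log2 fold change 0.072, SE 0.070), and its corrected value was 0.21 (adjusted p = 0.0291 from limma). The H2B deubiquitinase *USP49* had 751 and 826 against 822 and 899 counts, again overlapping in CPM, and a log2 fold change of 0.049 (SE 0.10). *USP44*, another H2B enzyme, was listed at 0 in 3 libraries and at 8 counts in sgUSP22 replicate 2, and was not tested. A gene at 0 could still have had 3 counts, which is 0.0456 to 0.0492 CPM, and this limit covers counting error only.

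*USP12* and *USP46* are close paralogs that work with the WD-repeat protein WDR48. *USP46* had 636 and 699 against 880 and 928 counts (log2 fold change 0.36, SE 0.10, adjusted p = 0.0124). *USP12* had 3472 and 3505 against 4056 and 3994 counts (log2 fold change 0.13, SE 0.046, adjusted p = 0.0393). Neither passed after correction, at 0.11 and -0.10. *USP46* also missed the threshold without control replicate 1 (adjusted p = 0.0703) or sgUSP22 replicate 2 (adjusted p = 0.0694). *USP12* missed it whichever library was left out, at adjusted p from 0.0907 to 0.207. *USP36*, a nucleolar enzyme of ribosome biogenesis, was lower, with 9615 and 9528 against 9110 and 9007 counts (log2 fold change -0.16, adjusted p = 0.00536). The ratio of *USP42* to its relative *USP36* in CPM was 0.127 and 0.138 in control and 0.214 and 0.231 in sgUSP22 libraries. Over the whole histone and chromatin group, 5 of 9 tested members were higher (55.6%, against 26.8% of all genes) and 1 was lower (11.1%, against 25.8%) at the adjusted threshold, with a median of 0.13. After correction 3 were higher (33.3%, against 24.5% of corrected genes) and 2 of the 9 lower, where 25.8% of corrected genes were. The corrected median was -0.029.

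**Figure D2:**
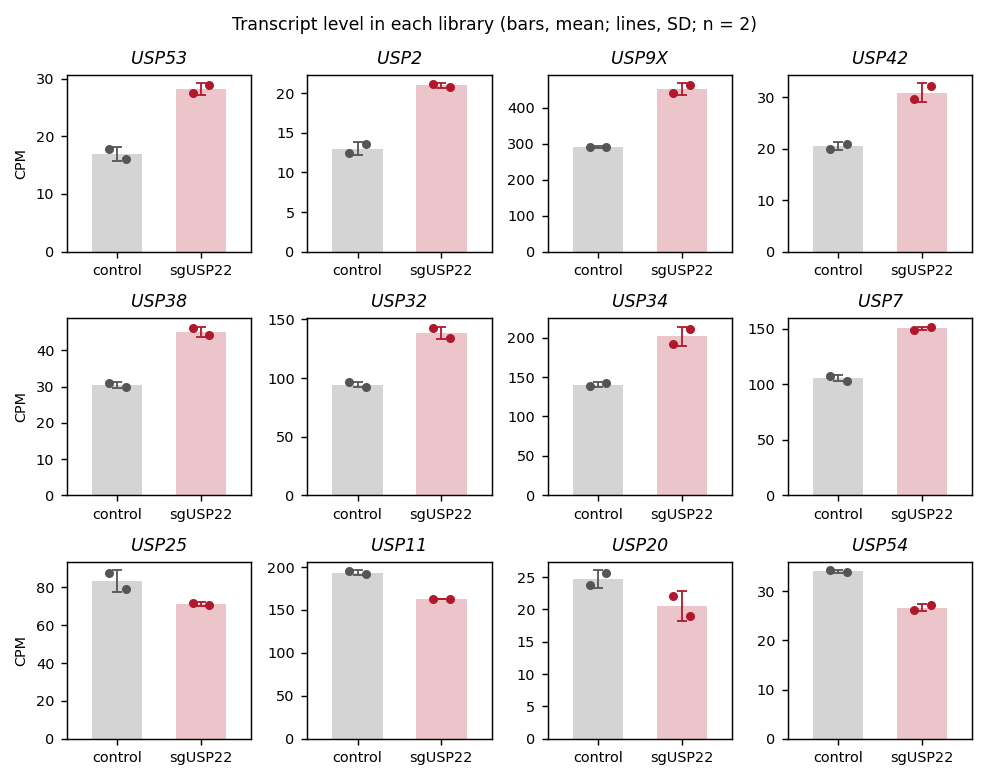
CPM (y axis, starting at 0) of 12 USP genes in the 2 control and 2 sgUSP22 libraries, with points for libraries, bars for means and lines for SD. The genes were chosen for large changes past the test, so the lack of overlap between groups in the 12 panels is no separate result. Over all tested genes, 38.3% had both sgUSP22 libraries above both controls and 37.6% had both below. The last row shows the lower genes *USP25*, *USP11*, *USP20* and *USP54*.

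Members known from DNA repair and the cell cycle differed by little, with 7 of 8 tested members higher at the adjusted threshold (87.5%, against 26.8% of all genes) and a median of 0.24, or 0.044 after correction. *USP37*, a cell cycle enzyme that acts on cyclin A, had the largest value, from 2788 and 2718 to 3679 and 3638 counts (log2 fold change 0.33, SE 0.051). *USP24* had 10305 and 10184 against 13074 and 13131 counts, and *USP47*, which acts on DNA polymerase beta, had 5252 and 4886 against 6604 and 6371, each with a log2 fold change of 0.28. For *USP45* the counts were 745 and 736 against 906 and 992 (log2 fold change 0.28, adjusted p = 0.0369). In these 4 genes both sgUSP22 libraries were above both controls. The call for *USP45* was lost without control replicate 1 (adjusted p = 0.076), control replicate 2 (adjusted p = 0.124) or sgUSP22 replicate 2 (0.20, adjusted p = 0.2), and with DESeq2 (adjusted p = 0.106).

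Smaller rises were found for *USP48*, with 5158 and 5006 against 5901 and 6429 counts (log2 fold change 0.20), and for *USP28*, with 3551 and 3715 against 4174 and 4581 (log2 fold change 0.19). *USP28* is known to stabilise MYC. Both calls were lost without sgUSP22 replicate 2, where *USP48* stood at 0.12 (adjusted p = 0.104) and *USP28* at 0.11 (adjusted p = 0.222). *USP48* also missed the threshold without control replicate 2 (adjusted p = 0.0593), and *USP28* without control replicate 1 (adjusted p = 0.0618). *USP1*, which acts on FANCD2 and PCNA, had a log2 fold change of 0.15 (adjusted p = 0.00833), and missed the threshold without control replicate 2 (adjusted p = 0.0517) or sgUSP22 replicate 2 (adjusted p = 0.056). After correction for GC content and length, 0 of the 8 genes in this group were higher by limma at the adjusted threshold, against 24.5% of corrected genes. *USP11*, a partner of BRCA2, went the other way. It had 11933 and 11949 counts in control and 10709 and 10485 in sgUSP22 libraries, or 194 ± 2.95 and 163 ± 0.389 CPM (SD, n = 2), a log2 fold change of -0.25 (SE 0.036, adjusted p = 0.000242), and -0.14 after correction. The ratio of *USP15* to its paralog *USP11* in CPM was 0.394 and 0.378 in control and 0.610 and 0.663 in sgUSP22 libraries. *USP26* and *USP29* were listed at 0 in all 4 libraries.

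Members of endosomes, the endoplasmic reticulum (ER) and mitochondria were divided, with 5 of 9 higher (55.6%, against 26.8% of all genes) and 2 lower (22.2%, against 25.8%) at the adjusted threshold and a median of 0.18. After correction 3 were higher (33.3%, against 24.5% of corrected genes) and 1 of the 9 was lower, where 25.8% of corrected genes were. The corrected median was 0.0056. *USP32*, an enzyme of endosomal traffic, rose from 5870 and 5782 to 9355 and 8685 counts, or 94.5 ± 2.54 to 138 ± 5.53 CPM (SD, n = 2). Its log2 fold change was 0.55 (SE 0.043, adjusted p = 5.07e-06), and 0.38 after correction. The pseudogenes *USP32P1*, *USP32P2* and *USP32P3* and the gene *USP6* resemble *USP32*, so the split of reads between them is uncertain. *USP32P3* had 561 and 531 against 657 and 849 counts (log2 fold change 0.39, adjusted p = 0.0397), and *USP6* had 19 and 7 against 20 and 23 (adjusted p = 0.448). *USP8*, the endosomal enzyme that recycles growth factor receptors, had 4716 and 4639 against 6138 and 6151 counts (log2 fold change 0.31, SE 0.043), and -0.021 after correction. *USP30*, which opposes mitophagy on the mitochondrial outer membrane, had 754 and 895 against 1118 and 1033 counts (log2 fold change 0.31, SE 0.10, adjusted p = 0.029), and 0.28 after correction. This call was lost without control replicate 1 (0.20, adjusted p = 0.198), without sgUSP22 replicate 1 (0.25, adjusted p = 0.13), with DESeq2 (adjusted p = 0.0666) and with no filter (adjusted p = 0.0708). *USP10* and *USP33* had log2 fold changes of 0.18 each, and for *USP10* this remained past the test after correction at 0.16 (adjusted p = 0.00491 from limma).

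*USP25*, an enzyme of ER-associated degradation, was lower, with 5338 and 4948 against 4728 and 4565 counts, or 83.4 ± 5.82 and 71.3 ± 0.874 CPM (SD, n = 2). The log2 fold change was -0.23 (SE 0.053, adjusted p = 0.00516), and -0.42 after correction. Its paralog *USP28* rose, and the ratio of *USP25* to *USP28* was 1.5 and 1.33 in control and 1.13 and 0.997 in sgUSP22 libraries. *USP20*, which binds VHL, had 1447 and 1603 against 1454 and 1221 counts, a log2 fold change of -0.27 (SE 0.094, adjusted p = 0.0359), and -0.16 after correction (adjusted p = 0.156 from limma). It also missed the threshold without control replicate 2 (-0.21, adjusted p = 0.167) or sgUSP22 replicate 2 (-0.16, adjusted p = 0.208), and with DESeq2 (adjusted p = 0.0623). The ER-anchored *USP19* had a log2 fold change of -0.12 (adjusted p = 0.0603), and passed the test without control replicate 1 (-0.17, adjusted p = 0.0191) or sgUSP22 replicate 1 (-0.16, adjusted p = 0.0445).

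Of the 3 enzymes that serve the proteasome and free ubiquitin, 2 were higher at the adjusted threshold (66.7%, against 26.8% of all genes). After correction with limma 0 were, against 24.5% of corrected genes. *USP14*, which sits on the proteasome, had 11956 and 12181 against 14693 and 14733 counts (log2 fold change 0.21, SE 0.035, adjusted p = 0.000704), and -0.018 after correction. *USP5*, which takes apart free ubiquitin chains, had 8431 and 9330 against 9197 and 9110 counts, overlapping, with a log2 fold change of -0.034 (adjusted p = 0.555). Its relative *USP13* had a log2 fold change of 0.19 (adjusted p = 0.0187) and, after correction, 0.0031. Its call was lost without control replicate 2 (adjusted p = 0.101), sgUSP22 replicate 1 (adjusted p = 0.0625) or sgUSP22 replicate 2 (adjusted p = 0.131).

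*USP53* and *USP54* are related proteins long held to lack protease activity, and *USP53* is known from tight junctions and inherited cholestasis. They moved in opposite directions. The gene of *USP53* is at chr4:119212587-119295518 on the plus strand. It had 1083 and 1003 counts in control and 1802 and 1867 counts in sgUSP22 libraries, or 16.9 ± 1.19 and 28.2 ± 1.06 CPM (SD, n = 2). This was the largest rise past the test in the family, a log2 fold change of 0.74 (SE 0.084, adjusted p = 5.54e-05), or 1.67-fold. Correction lowered it to 0.41 (adjusted p = 0.00161 from limma). *USP54*, at chr10:73497538-73626117 on the minus strand, was the member that fell most, from 2088 and 2112 to 1718 and 1758 counts, or 34.0 ± 0.275 to 26.7 ± 0.769 CPM (SD, n = 2). Its log2 fold change was -0.35 (SE 0.065, adjusted p = 0.0013), and -0.42 after correction. The ratio of *USP53* to *USP54* in CPM was 0.519 and 0.475 in control libraries and 1.05 and 1.06 in sgUSP22 libraries. *USP39*, a spliceosome protein without protease activity, had 5704 and 6202 against 5650 and 5340 counts (log2 fold change -0.19, adjusted p = 0.00552). *USP50* was listed at 0 throughout. The little characterised *USP40* and *USP43* did not pass the test (adjusted p = 0.55 and 0.124), although *USP43* did without control replicate 2 (-0.38, adjusted p = 0.0144).

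Levels were compared between genes as CPM per kb of transcript. In control libraries *USP11* (60.6), *USP1* (55.6) and *USP5* (45.5) were highest, ahead of *USP39* (44.2), *USP14* (39.3) and *USP10* (38.9). In sgUSP22 libraries *USP1* (61.5) was above *USP11* (50.9). Among tested members, the lowest in control libraries were *USP6* (0.0239), *USP46* (1.36) and *USP49* (1.43). On this scale *USP9X* stood at 23.2 in control and 36.0 in sgUSP22 libraries. Summed over the 46 members, the family made up 3227 and 3183 CPM in control and 3655 and 3746 CPM in sgUSP22 libraries. Without *USP9X* the sums were 2938 and 2891, and 3215 and 3283.

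Transcripts of the tested members were long, with a median of 5448 bases against 3105 over all matched genes. They had more exons (20.5 against 8) and a lower GC content (44% against 48.9%). Across the 42 members, which share the same 4 libraries, the log2 fold change had a Spearman correlation of -0.45 with GC content and 0.50 with transcript length, and over 14384 genes these were -0.25 and 0.23. Of the 22 members under 45% GC, a boundary set after the values were seen, 20 rose and 1 fell, against 41.2% and 16.2% of all genes in that range. Of the 20 members at or above it, 6 rose and 5 fell, against 19.7% and 32.1%. *USP2* and *USP42* are GC-richer members that were called higher (56.3% and 51.3%), and *USP25* was the GC-poor member that fell (40.2%).

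**Figure D3:**
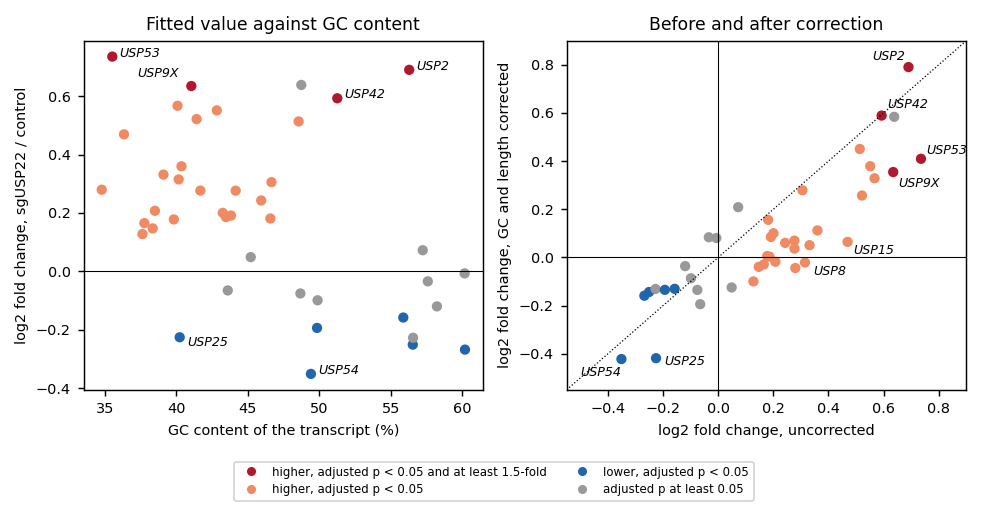
Left, log2 fold change of the 42 tested USP genes (y axis) against transcript GC content in percent (x axis), and right, the value after removal of GC and length trends (y axis) against the uncorrected value (x axis), with the dotted line marking equal values. Most genes in orange, which were higher at the adjusted threshold but under 1.5-fold, lie nearer to 0 after correction, *USP15* at 0.064 from 0.47, while *USP2* and *USP42* stay at 0.79 and 0.59.

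Each member was set beside its chromosomal neighbours, the tested genes above 1 log2 CPM that start within 2 Mb of the member. The 33 neighbours of *USP54* had a median log2 fold change of -0.54, beside -0.35 for *USP54* itself. Of these neighbours 30 were below 0, while 50.1% of all tested genes were above 0. For *USP25* the 5 neighbours had a median of 0.43, opposite to its own fall. The 22 neighbours of *USP8* had a median of 0.34, near the 0.31 of *USP8* itself, and the 6 of *USP7* had 0.25. Neighbours of *USP53*, *USP2*, *USP9X* and *USP42* had medians of -0.12, 0.074, 0.14 and -0.032, all far below the members' own values. The part of such regional shifts in the result for any member was not tested.

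**Figure D4:**
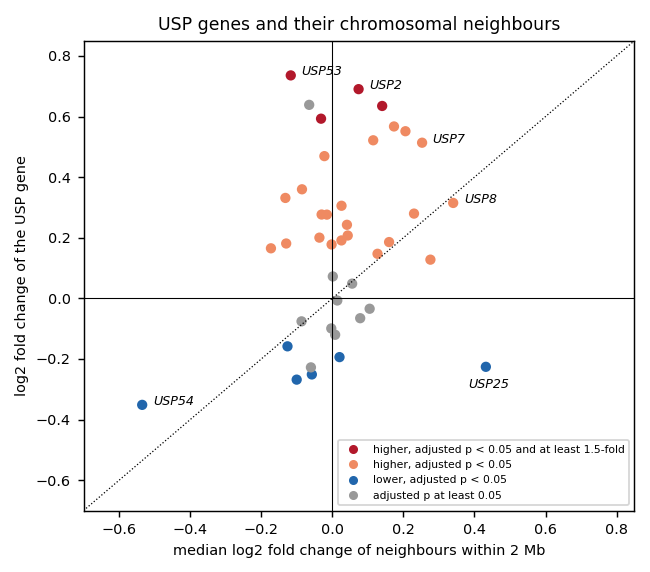
Log2 fold change of each of the 42 tested USP genes (y axis) against the median of its neighbours within 2 Mb (x axis), coloured by the result of edgeR's test, with a dotted line at equal values. *USP54* lies at the far left with neighbours at -0.54, and the 4 genes called higher lie far above the line.

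The antisense genes *USP3-AS1*, *USP2-AS1* and *USP30-AS1* overlap their members in position. The strand setting of the counts is not given in the sources used here, so reads of these genes cannot be told apart from those of the member. *USP12-AS2* and *USP46-AS1* had no matched position, so their overlap was not checked. *USP30-AS1* had 5 and 1 against 14 and 9 counts and was not tested. *USP3-AS1* fell, with 171 and 169 against 77 and 99 counts (log2 fold change -1.03, SE 0.23, adjusted p = 0.00389). *USP12-AS2* had 31 and 14 against 4 and 0 counts (adjusted p = 0.0175). *USP2-AS1* did not pass the test, with 91 and 156 against 147 and 131 counts, and *USP46-AS1* likewise with 24 and 18 against 17 and 19.

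The other deubiquitinase families were read beside the USPs. Of 36 tested genes, 14 were higher (38.9%, against 26.8% of all genes) and 11 lower (30.6%, against 25.8%) at the adjusted threshold, with a median of 0.025. With the fold threshold 3 were called higher, a share of 8.33% near the background of 8.88%, and 2 were called lower, where 7.25% of all genes were. After correction 12 of the 36 were higher (33.3%, against 24.5% of corrected genes) and 13 lower, where 25.8% of corrected genes were, with a median of -0.069. With the fold threshold 1 was then called higher (2.78%, against 8.2%), neither *ATXN3* nor *MINDY2*. The number called lower was 2, where 952 of all 14384 corrected genes were. The values of the 5 genes called without correction follow as a description of single genes. *ATXN3*, the Josephin enzyme whose repeat expansion causes an inherited ataxia, rose from 698 and 690 to 1358 and 1333 counts (log2 fold change 0.88, SE 0.087). *MINDY2*, which trims long K48 chains, rose from 1398 and 1495 to 2599 and 2837 (log2 fold change 0.83), and *OTUD7A* from 245 and 267 to 451 and 430 (log2 fold change 0.70). *TNFAIP3*, the NF-kappaB inhibitor A20, fell from 9180 and 9444 to 6089 and 5698 counts (log2 fold change -0.74), and *MINDY4* from 188 and 187 to 108 and 122 (log2 fold change -0.78). Of the tested UCH genes 0 of 3 were higher, against 26.8% of all genes. The gene *BAP1* was lower (log2 fold change -0.22), or 33.3% against 25.8% of all genes. With 3 genes, these counts are too small to compare with the shares of all genes. At an unadjusted p under 0.05 in edgeR the number of UCH genes higher was also 0.

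*UBB*, a polyubiquitin gene, fell by less than 1.5-fold, with 47725 and 50787 against 45453 and 44326 counts (log2 fold change -0.21, SE 0.032). *RPS27A*, which fuses ubiquitin to a ribosomal protein, fell from 41550 and 41060 to 36093 and 35410 counts (log2 fold change -0.29, SE 0.032). Both sgUSP22 libraries had lower counts than both controls for each gene. Of the *USP22* paralogs left out of the family, *USP27X* had 61 and 65 against 196 and 206 counts (log2 fold change 1.59, SE 0.22, adjusted p = 0.000183), and *USP51* had 10 and 4 against 0 and 10 counts.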

How the data were processed

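RNA-seq was analysed in 4 libraries of Sorafenib-treated cells, 2 control and 2 sgUSP22. The authors aligned reads to hg38 with HISAT2 2.2.1 and deposited whole-number gene counts from StringTie 2.2.1, not divided by library size, with annotation and strand setting not given in the sources used here. Columns were assigned by name. Depth, from 62030307 to 64728272 counts, limits only scarce genes, where 3 counts equal at most 0.0492 CPM.

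The whole table was fitted with glmQLFit and glmQLFTest of edgeR 4.0.16 (R 4.3.3) after TMM scaling and filterByExpr at a minimum count of 10, with calls at an adjusted p-value below 0.05 and, for a second count, a fold change of at least 1.5. Standard errors were obtained from each log2 fold change and the square root of its F statistic. Alternatives were DESeq2 1.42.0, scaling by RLE or by library size alone, the replicate block, a filter at a mean of 50 counts or none, a test against 1.5-fold, leaving out each library, and removal of lowess trends (span 0.3) in GC content and length followed by limma 3.58.1. Positions, lengths and GC content came from GENCODE v44, matched by symbol for 25763 of 28278 genes and for every member. The procedures were tested on simulated data.

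Genes given in full were those past 1.5-fold, then those past the adjusted threshold by size up to 25 members, and the histone enzymes. Other members are given in brief, and the ratios of related members, antisense genes, pseudogenes, neighbours, *BAP1* and the USP partners were chosen after values were seen. The members and lists were chosen with earlier results of these data known. Some genes of the lists are not reported here.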

Additional observations from a re-analysis of the deposited data

How the results depend on the processing

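With library size alone, 6 members were called higher and the median was 0.24, against 4 and 0.19. The median over all tested genes also moved, to 0.053 from 0.00091. Shares of all genes are given above only for the main fit and the correction. Member counts under the other settings in this section therefore show how the calls vary, and do not compare members with other genes. Correction for GC and length left 2 called higher and 11 higher at the adjusted threshold (against 26), a median of 0.044 and 3 other deubiquitinases called (against 5). That correction also reversed the direction of *USP1* (-0.039), *USP35* (0.080), *USP5* (0.084), *USP12* (-0.10), *USP8* (-0.021), *USP14* (-0.018), *USP16* (-0.029), *USP49* (-0.13) and *USP45* (-0.044), and library size alone that of *USP35* (0.046) and *USP5* (0.018). The test against 1.5-fold asks whether a change exceeds 1.5-fold, and in it 0 members were called and 0 were higher or lower at the adjusted threshold. Of the members, 3 had an unadjusted p under 0.05 (edgeR's glmTreat, smallest adjusted p = 0.159), and 3 other deubiquitinases were called. So no member was shown to exceed 1.5-fold. DESeq2, RLE factors, no filter and a mean of 50 counts kept the counts within 1.5 times, from 21 to 26 higher at the adjusted threshold. The cause of these shifts was not tested.

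With each library left out, the lone library of a group being assumed to vary like the others, 4 to 5 members were called higher, 5 to 7 were lower at the adjusted threshold, the median was 0.16 to 0.21, 5 to 6 other deubiquitinases were called, and members higher at the adjusted threshold ranged from 17 (without sgUSP22 replicate 2) to 23. The log2 fold change of *USP35* ranged from -0.20 to 0.15, of *USP49* from -0.031 to 0.11, of *USP5* from -0.090 to 0.023, of *USP40* from -0.20 to 0.026 and of *USP21* from -0.00075 to 0.13.

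Replicate numbers do not pair these libraries, with a correlation of 0.042 between same-numbered deviations and nothing in the labels that ties them. With the replicate block, 4 members were called higher, 25 were higher and 6 were lower at the adjusted threshold, and *USP12* no longer passed (adjusted p = 0.0713). Replicates differed beyond sampling noise (chi-square averaged over genes 7.91 for the control pair and 8.44 for the sgUSP22 pair).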

Other observations

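Proteins that work with USP enzymes were read beside them, and 4 of 8 were higher (50%, against 26.8% of all tested genes) and 1 was lower (12.5%, against 25.8%) at the adjusted threshold, 0 of them called with the fold threshold by edgeR. *STAM*, the endosomal partner of USP8, rose from 1599 and 1598 to 2231 and 2312 counts (log2 fold change 0.43, standard error 0.067). *WDR48*, the cofactor of USP1, USP12 and USP46, rose from 4006 and 4252 to 5167 and 5117 counts (log2 fold change 0.24), and the USP10 partner *G3BP1* from 17612 and 18436 to 22640 and 23007 (log2 fold change 0.26). *STAM2* also rose (log2 fold change 0.24). *DNMT1*, the maintenance DNA methyltransferase that USP7 binds, fell from 21379 and 22087 to 19438 and 18608 counts (log2 fold change -0.27). The median over the 8 was 0.22, and -0.064 after the GC and length correction. In that fit 2 of the 8 were higher (25%, against 24.5% of corrected genes) and 2 lower, where 25.8% of corrected genes were.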
